A study of Mus musculus with 45 samples.

Results

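Hmga2, Hmga1, Igf2bp1, Igf2bp2, Igf2bp3 and Lin28b, genes of the HMGA, IGF2BP and LIN28 families that are active in the embryo and return in many cancers, were examined in mouse brain tumours driven by mutant PDGFRA or by EGFRvIII. The 6 genes were chosen by symbol, and where a gene had several probe sets, the one brightest on average across the 45 arrays gave its value. Of the 6 genes, 3 had a probe set named in the annotation used, among 17097 genes that had one: Hmga2, Igf2bp1 and Igf2bp3, each with 4 probe sets. Hmga1, Igf2bp2 and Lin28b were not analysed here, nor were 2 probe sets that Igf2bp3 shares with another symbol. Hmga2 and Igf2bp3 passed the filter on low signals, which kept the 11809 genes whose signal exceeded 4.79, the median of the table, on 3 or more arrays, and Igf2bp1 did not. Igf2bp3 passed through only 5 arrays, 4 of EGFRvIII and 1 of V544ins.

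HMGA2 is a small protein that binds AT-rich DNA in the minor groove, bends it and helps other factors to assemble on chromatin. The IGF2BP proteins bind messenger RNAs, Igf2 among them, and steer their transport, stability and translation. LIN28B blocks the maturation of let-7 microRNAs, which pair with and hold down the messages of Hmga2, the IGF2BP genes and LIN28B itself, so that the families are linked through let-7, and they are active in the fetal brain and mostly silent in the adult.

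Total RNA of the tumours was measured on Affymetrix 3' IVT arrays. Every group, EGFRvIII included, carried a p53 null background, was of the CD-1 nude strain and came from a glioblastoma model. The PDGFRA receptors were expressed from retroviruses, and cultured astrocytes lacking p53 were the study's cellular background. The PDGFRA mutant groups, named as in the labels, were C450 ins, D842V and E10 del with 5 arrays each, E10 del.v2 and V544ins with 9 each, and E7 del with 3, which made 36 mutant arrays. Unmutated PDGFRA (WT) gave 1 array, reported as a value without a test, and EGFRvIII, the truncated and constantly active epidermal growth factor receptor, gave 8. Ages and time points are not given in the sources used here. Replicate numbers only name arrays, and because no label says that arrays came from separate animals, the p-values reflect only how far these samples vary.

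Values are log2 signals, on which a difference of 1 is a doubling, and they ran from 1.46 to 13.82 over the table. Astrocyte markers averaged 6.67 to 9.57 per array and oligodendrocyte progenitor markers 6.45 to 10.84, all above the table median. Neuron markers varied most between arrays, with means from 4.66 to 11.56. The numbers in the sample titles fell in a lower range, 1 to 30, and an upper range, 41 to 64, which the labels do not call batches. EGFRvIII, E7 del and WT lay in the upper range only, the C450 ins, D842V and E10 del groups in the lower range only, and V544ins and E10 del.v2 had 3 arrays in the lower and 6 in the upper. In bulk tissue, fewer cells of a type and less RNA per cell cannot be told apart.

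The mature sequences of 4 let-7 family members are shown because let-7 is the textbook regulator that ties these genes together, although let-7 itself was not measured by these values. Capitals mark the seed, bases 2 to 8, and the sequences are RefSeq's for GRCm38.p6.
mmu-let-7a-5p: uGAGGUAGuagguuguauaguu
mmu-let-7c-5p: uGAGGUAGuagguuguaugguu
mmu-miR-98-5p: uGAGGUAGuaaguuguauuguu
mmu-let-7j: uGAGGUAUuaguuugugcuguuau
The seed GAGGUAG was shared by 10 of the 11 mouse family members in the table, and let-7j carried GAGGUAU.

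The 250 bases before the start of Hmga2 and of Igf2bp3 are shown because these were the members that passed the filter. Both windows are from RefSeq on GRCm38.p6 and read 5' to 3' along the minus strand, at chr10:120476470-120476719 for Hmga2 and chr6:49214955-49215204 for Igf2bp3. Capitals mark a GC box (GGGCGG, here as its reverse complement) in Hmga2 and a CCAAT box in Igf2bp3.
Hmga2: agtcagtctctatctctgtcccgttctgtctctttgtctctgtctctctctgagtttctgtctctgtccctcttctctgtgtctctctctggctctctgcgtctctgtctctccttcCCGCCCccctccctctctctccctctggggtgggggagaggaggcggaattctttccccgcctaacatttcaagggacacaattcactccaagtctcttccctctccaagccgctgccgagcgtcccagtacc
Igf2bp3: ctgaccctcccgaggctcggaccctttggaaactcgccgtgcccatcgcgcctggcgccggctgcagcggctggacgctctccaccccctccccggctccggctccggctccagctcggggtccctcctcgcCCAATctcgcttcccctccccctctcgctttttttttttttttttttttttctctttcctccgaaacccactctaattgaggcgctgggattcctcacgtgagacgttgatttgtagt
Hmga2 held the GC box 133 bases before its start, a motif that 32.7% of the 32851 promoter windows of this length hold on either strand. Igf2bp3 held CCAAT 118 bases before its start (33.8% of windows) and 1 E-box, CANNTG, 23 bases before it (66.2% of windows). Neither window held TATAAA (12.4% of windows) or the AP-1 motif TGANTCA (6.75%). The GC content was 56.4% for Hmga2 and 60.4% for Igf2bp3, against a median of 52.4% over all windows.

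Hmga2 was 6.72-fold lower in the PDGFRA mutant tumours than in EGFRvIII tumours, and was the one member called between them. In C450 ins its log2 signals were 6.40, 7.0, 6.89, 7.22 and 7.16, and in D842V they were 7.17, 8.98, 8.87, 8.46 and 8.99. In E10 del they were 5.48, 5.0, 5.54, 7.15 and 6.03, and in E7 del 8.18, 6.18 and 7.18. The lowest, median and highest values were 3.89, 7.06 and 7.73 in the 9 E10 del.v2 arrays, and 5.33, 6.82 and 8.36 in the 9 V544ins arrays. The WT array was at 8.56. The 8 EGFRvIII arrays were at 7.52, 9.78, 9.82, 11.27, 12.10, 11.41, 7.43 and 8.44. The groups overlapped between 7.43 and 8.99, and no mutant array reached the EGFRvIII median of 9.80. Above every mutant array lay 5 EGFRvIII arrays, and 28 of the 36 mutant arrays lay below every EGFRvIII array. The limma comparison called 5.35% of all genes lower, which is another measure. The share of all genes that separate as far was not counted, here or for later counts of this kind.

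**Figure D1:**
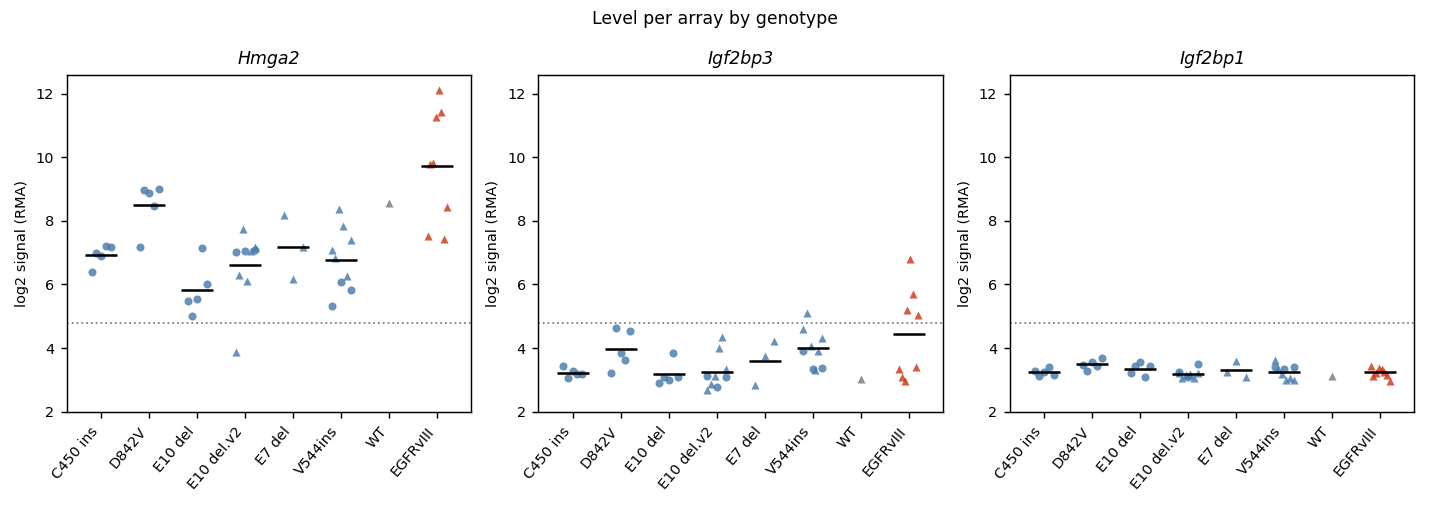
Log2 signal of Hmga2, Igf2bp3 and Igf2bp1 (vertical axes) in each of the 45 arrays by genotype, with circles for the lower and triangles for the upper range of title numbers, black lines for means of groups with more than 1 array, and a dotted line at the table median of 4.79. Hmga2 spans 3.89 to 8.99 in the mutant arrays and 7.43 to 12.10 in EGFRvIII, whereas Igf2bp1 stays below the dotted line in all arrays.

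In the order of the group means, D842V came first among the mutants at 8.49 ± 0.77 (SD, n = 5). E7 del followed at 7.18 ± 1.0 (n = 3), C450 ins at 6.93 ± 0.32 (n = 5), V544ins at 6.78 ± 0.99 (n = 9), E10 del.v2 at 6.60 ± 1.13 (n = 9) and E10 del at 5.84 ± 0.82 (n = 5). EGFRvIII stood above them at 9.72 ± 1.80 (n = 8). Of the neighbours in this order, only D842V and E7 del lay further apart than the larger of their SDs. The spread within C450 ins was the smallest, and its arrays had neuron list means from 5.75 to 10.67. A link between the 2 was not tested.

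Across the 6 mutants together Hmga2 differed from EGFRvIII by -2.75 ± 0.44 on the log2 scale (SE, 95% confidence interval -3.64 to -1.86). It was called (limma adjusted p = 0.000206) and ranked 13 of 11809 genes by p. All groups in the fit share an estimate of spread, while the SD was 1.80 in EGFRvIII and 0.32 to 1.13 in the mutant groups. The SE, interval and p here and in later contrasts with EGFRvIII therefore understate the spread within EGFRvIII. Of all genes tested, 8.9% were called in this comparison at an adjusted p under 0.05, 3.55% higher and 5.35% lower in the mutants. With the title range as a block the difference was -2.48 ± 0.56 (limma adjusted p = 0.0130). Within titles 41 to 64 alone it was -2.77 ± 0.59 (adjusted p = 0.0325). Of the mutants, that range holds only E7 del, V544ins and E10 del.v2, here and in later results for these titles. Without EGFRvIII replicates 4, 5 and 6 the difference for all 6 mutants was -1.62 ± 0.45, which was not called (adjusted p = 0.0954).

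The 6 mutants were next set against EGFRvIII one at a time, in contrasts that share the 8 EGFRvIII arrays. Hmga2 was 14.7-fold lower in E10 del (log2 difference -3.88 ± 0.63, limma adjusted p = 0.00105), where 18.4% of all genes were called. All E10 del arrays have titles in the lower range and all EGFRvIII arrays in the upper, and with the range as a block this call was lost (-3.44, adjusted p = 0.168). Hmga2 was 8.68-fold lower in E10 del.v2 (-3.12 ± 0.54, adjusted p = 0.00109, 7.06% of genes called) and 7.66-fold lower in V544ins (-2.94 ± 0.54, adjusted p = 0.00188, 4.06% called). In C450 ins the difference was -2.79 ± 0.63 without passing (adjusted p = 0.117), in a contrast that called 3 genes, 0.0254% of those tested. In E7 del it was -2.54 ± 0.75 (adjusted p = 0.108, 0.5% called). In D842V it was -1.23 ± 0.63, with an interval from -2.51 to 0.05 (adjusted p = 0.290, 3.14% called). Every one of the 5 C450 ins and 5 E10 del arrays lay below every EGFRvIII array. So did 8 of 9 in E10 del.v2, 7 of 9 in V544ins, 2 of 3 in E7 del and 1 of 5 in D842V. How many of all genes separate these groups as far was not counted.

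**Figure D2:**
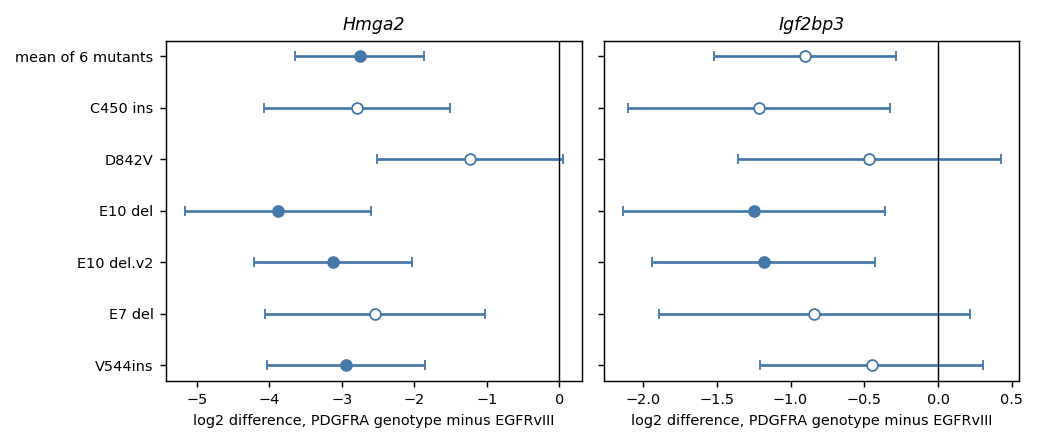
Log2 difference from EGFRvIII (horizontal axes) of Hmga2 and Igf2bp3 for the mean of the 6 mutants and for each mutant, with 95% confidence intervals and filled points where the limma adjusted p was under 0.05. Hmga2 runs from -3.88 in E10 del to -1.23 in D842V, and Igf2bp3 from -1.25 in E10 del to -0.45 in V544ins, with no call for Igf2bp3 in E10 del or E10 del.v2 when no filter is set.

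Among the mutants themselves Hmga2 did not pass the test for differences (limma moderated F = 3.16, adjusted p = 0.203), in which 0.576% of genes were called. D842V was 1.82 ± 0.54 above the mean of the other 5 mutants (95% confidence interval 0.73 to 2.92, adjusted p = 0.0964, 0.584% of genes called), and with a host brain covariate, the average of the neuron and myelinating oligodendrocyte list means, it was 2.16 above them and passed (adjusted p = 0.0184). E10 del was below the other 5 by -1.36 ± 0.54 (adjusted p = 0.116, 0.796% called). E7 del (0.25, 0.356% of genes called), C450 ins (-0.05, 0%), V544ins (-0.23, 0%) and E10 del.v2 (-0.44, 0%) did not pass against the others. D842V, E10 del and C450 ins were all in the lower title range.

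The 5 arrays lowest in Hmga2 had neuron list means of 10.49 to 11.56. Neuron means of 10.54 to 10.74 were also found with higher Hmga2. They were in V544ins replicate 3 (Hmga2 5.84), C450 ins replicate 1 (6.40), D842V replicate 1 (7.17) and EGFRvIII replicate 1 (7.52). Over the 45 arrays Hmga2 had r = -0.38 with the neuron list mean, 0.49 with the cell cycle list and 0.58 with the neural stem and radial glia list. E10 del.v2 replicate 2, at 3.89, had the highest neuron list mean of all arrays, 11.56, a cell cycle list mean of 4.62 and an Actb 3' signal 1.19 above its 5' signal on the log2 scale, a measure of RNA integrity that was 0.43 to 0.93 in the other 44 arrays. E10 del replicates 1, 2 and 3, at 5.48, 5.0 and 5.54, had neuron means of 10.94, 10.88 and 10.49, and V544ins replicate 1, at 5.33, had 10.73. With E10 del.v2 replicate 2 and the 3 E10 del arrays named here left out, the Hmga2 difference from EGFRvIII was -2.57 ± 0.42 (limma adjusted p = 0.000463), and with the host brain covariate it was -2.42 ± 0.44 (adjusted p = 0.00116). D842V replicates 2, 3 and 4 had neuron means of 9.58, 9.62 and 9.72 and Hmga2 at 8.98, 8.87 and 8.46. The part of host brain content in these levels was not tested beyond the covariate.

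V544ins and E10 del.v2 are the genotypes whose arrays span both title ranges. In V544ins Hmga2 averaged 7.30 ± 0.74 in the upper range (SD, n = 6) and 5.75 ± 0.38 in the lower (n = 3), with a difference of 1.55 ± 0.62 (limma adjusted p = 0.0656, 29.7% of genes called). In E10 del.v2 it averaged 6.38 ± 1.36 in the upper range (n = 6) and 7.05 ± 0.02 in the lower (n = 3), with a difference of -0.67 ± 0.62 (adjusted p = 0.9999, 0% called). Without E10 del.v2 replicate 2, the array at 3.89, the upper mean was 6.88 ± 0.66 (n = 5), the difference in E10 del.v2 was -0.18 ± 0.42 (adjusted p = 0.958), and that in V544ins, unaltered at 1.55, was called (adjusted p = 0.00629). The difference between these differences was 2.23 ± 0.87 and did not pass (adjusted p = 0.120, 0.0339% called); it was 1.73 without that array (adjusted p = 0.0682) and 1.03 with the host brain covariate (adjusted p = 0.907). With the covariate the difference in V544ins was 0.25 (adjusted p = 0.940). The neuron list averaged 6.91 in the upper and 10.48 in the lower V544ins arrays, and 9.16 in the upper and 9.58 in the lower E10 del.v2 arrays; its part in these differences was not tested apart from the covariate. Igf2bp3 was 0.54 ± 0.26 higher in the upper range over both genotypes and did not pass (adjusted p = 0.194, 5.47% called), and with the host brain covariate its sign turned (-0.0433, adjusted p = 0.961).

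All 4 probe sets of Hmga2 were lower in the mutants. Over the 45 arrays their pairwise correlations were 0.96 to 0.99, a description of arrays that share tissue content. Their means ran from 4.62 to 7.44, and each was called for the mutants against EGFRvIII when all probe sets were fitted singly, with differences from -2.93 to -2.75 (limma adjusted p from 0.000154 to 0.00126). The probe set used was above the table median in 44 arrays, and the dimmest in 14.

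**Figure D3:**
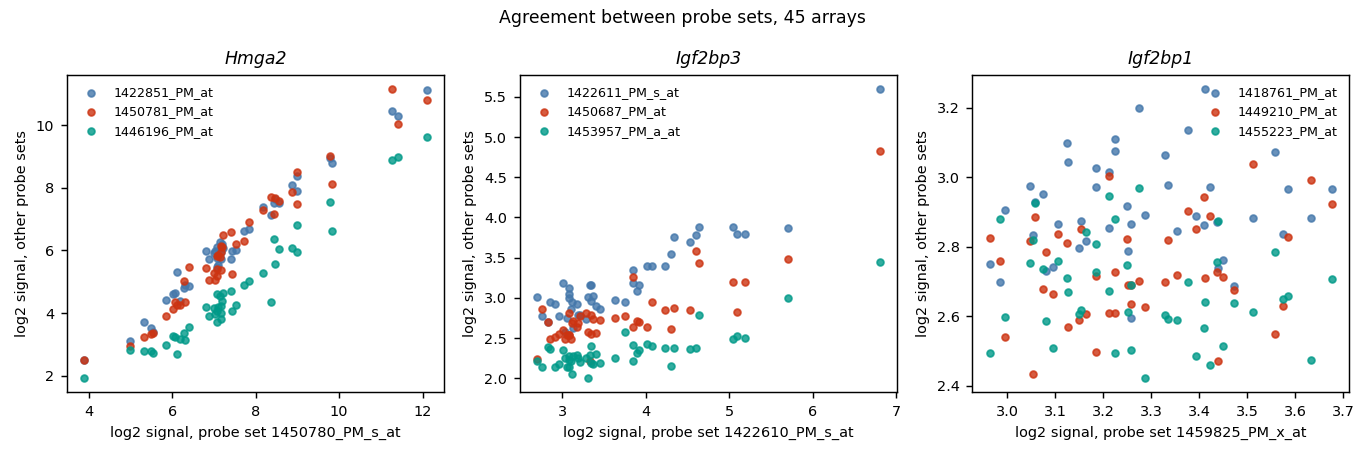
Log2 signal of the other 3 probe sets of each gene (vertical axes) against the probe set used (horizontal axes) in 45 arrays. The points of Hmga2 and Igf2bp3 rise together, with pairwise correlations of 0.96 to 0.99 and 0.80 to 0.92, whereas those of Igf2bp1 scatter, with -0.30 to 0.25.

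Igf2bp3 was near the floor of the arrays in most tumours and above the table median in 4 EGFRvIII arrays. Its log2 signals were 3.45, 3.05, 3.28, 3.17 and 3.19 in C450 ins, and 3.22, 4.64, 3.85, 3.63 and 4.53 in D842V. They were 2.92, 3.10, 3.01, 3.85 and 3.08 in E10 del, and 2.83, 3.75 and 4.23 in E7 del. The lowest, median and highest values were 2.69, 3.11 and 4.34 in E10 del.v2, and 3.31, 3.92 and 5.09 in V544ins. The WT array was at 3.03, and the EGFRvIII arrays were at 3.34, 3.08, 2.96, 5.18, 6.80, 5.70, 3.41 and 5.04. EGFRvIII replicates 4, 5 and 6 exceeded every mutant array, and the other 5 lay within the range of the mutants.

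The group means of Igf2bp3 were 3.99 ± 0.61 in V544ins (SD, n = 9), 3.97 ± 0.60 in D842V (n = 5) and 3.60 ± 0.71 in E7 del (n = 3). They were 3.26 ± 0.56 in E10 del.v2 (n = 9), 3.23 ± 0.15 in C450 ins (n = 5), 3.19 ± 0.37 in E10 del (n = 5) and 4.44 ± 1.43 in EGFRvIII (n = 8). No neighbours in this order differed by more than the larger SD. The mutants together differed from EGFRvIII by -0.90 ± 0.31 (limma adjusted p = 0.0563), which was not called. This SE too rests on the spread shared by all groups, while the SD in EGFRvIII was 1.43. Without EGFRvIII replicates 4, 5 and 6 the difference was -0.03 ± 0.27 (adjusted p = 0.984), and leaving out 1 array at a time it ran from -1.11 to -0.56.

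Igf2bp3 passed the filter mainly through EGFRvIII, the group where it was highest, so its single contrasts are given first with no filter set. The differences from EGFRvIII were then -1.25 ± 0.44 in E10 del (limma adjusted p = 0.0579) and -1.18 ± 0.38 in E10 del.v2 (adjusted p = 0.0521), and neither was called. Within the filtered genes the adjusted p was 0.0441 in E10 del and 0.0472 in E10 del.v2, calls that rest on that filter and were also lost with the title range as a block (-0.70 and -1.0) and with the host brain covariate (-0.59 and -0.64). The differences were -1.21 ± 0.44 in C450 ins, -0.84 ± 0.52 in E7 del, -0.47 ± 0.44 in D842V and -0.45 ± 0.37 in V544ins, with adjusted p from 0.337 to 0.591. Differences among the mutants did not pass (adjusted p = 0.446). The 4 probe sets of Igf2bp3 had pairwise correlations of 0.80 to 0.92 over the 45 arrays, and 3 of them lay under the filter.

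Igf2bp1 was not detected above the low end of the signal range. Its values ran from 2.99 to 3.68 in the mutant arrays and from 2.96 to 3.44 in EGFRvIII, with 3.13 in WT, and all 4 probe sets were below the table median in all 45 arrays. The group means were between 3.19 and 3.49, and the mutants differed from EGFRvIII by 0.07 ± 0.07 when no filter was set (limma adjusted p = 0.528, 7.85% of 17097 genes called). Its probe sets did not follow each other, with pairwise correlations from -0.30 to 0.25. Lin28a, the paralogue of Lin28b and no member of the set, had group means from 2.37 to 2.60.

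The EGFRvIII group had the widest spread in both genes, with an SD of 1.80 for Hmga2 and 1.43 for Igf2bp3 (n = 8), against at most 1.13 and 0.71 in the mutant groups. Replicates 4, 5 and 6 had the highest values of Hmga2 (11.27, 12.10 and 11.41) and of Igf2bp3 (5.18, 6.80 and 5.70). In the same arrays the mesenchymal glioma list averaged 9.91, 9.87 and 9.39, against 6.49 to 8.18 in the other 5, and the oligodendrocyte progenitor list averaged 7.13, 6.45 and 8.16, against 9.36 to 10.76. The microglia and macrophage list averaged 9.68, 9.55 and 8.67 in them and 7.41 to 8.31 in the others.

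The 2 genes did not move in step in the remaining EGFRvIII arrays. Replicates 2 and 3 had Hmga2 at 9.78 and 9.82 with Igf2bp3 at 3.08 and 2.96, and their mesenchymal means, 6.84 and 7.49, were among the lower ones. Replicate 8 had Igf2bp3 at 5.04 with Hmga2 at 8.44. Replicates 1 and 7 were low in both, at 7.52 and 7.43 for Hmga2 and 3.34 and 3.41 for Igf2bp3. The neuron list averaged 10.54 in replicate 1 and 6.73 in replicate 7. The WT array had Hmga2 at 8.56 and Igf2bp3 at 3.03. No label divides these arrays, so no test was made between them.

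**Figure D4:**
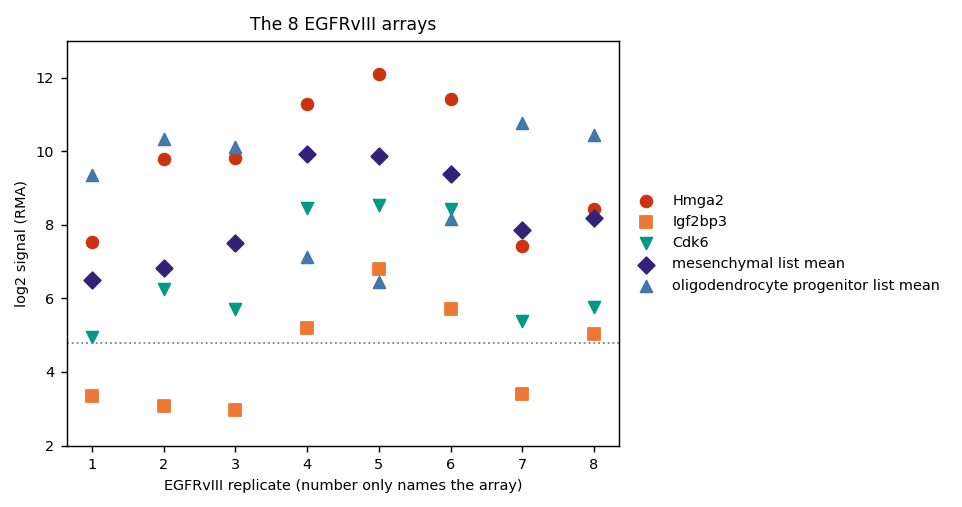
Log2 signal (vertical axis) of Hmga2, Igf2bp3 and Cdk6 and the means of the mesenchymal and oligodendrocyte progenitor lists in each of the 8 EGFRvIII arrays, with a dotted line at the table median. Replicates 4, 5 and 6 are highest in Hmga2, at 11.27 to 12.10, and lowest in the progenitor list, at 6.45 to 8.16, while replicates 2 and 3 have Hmga2 near 9.8 with Igf2bp3 near 3.

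Over all 45 arrays, Hmga2 and Igf2bp3 had a Pearson correlation of 0.60, and 0.50 for deviations from group means in 44 arrays. The genes most like Hmga2 over the 45 arrays were Cdkn2b, an inhibitor of CDK4 and CDK6 (r = 0.87), Tnc, the matrix protein tenascin-C (0.85), the podosome adaptor Sh3pxd2b (0.84), the IGF-binding protein gene Igfbp3 (0.84) and Gch1, which starts tetrahydrobiopterin synthesis (0.82). The most opposed were Prxl2b (-0.84), the monoacylglycerol lipase gene Mgll (-0.83) and Atp9a (-0.82). When group means were removed, Tnc (0.84), Sh3pxd2b (0.82), the transcription factor gene Runx1 (0.82), the tubulin gene Tubb6 (0.81) and Cd1d1, which presents lipids to T cells (0.81), were the highest. Runx1 is in the mesenchymal list and Tnc in the neural stem and radial glia list. These values describe arrays that share tissue content, and the mesenchymal list mean itself had r = 0.74 with Hmga2.

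For Igf2bp3 the highest were Slc10a3 (0.79), the GDP-fucose synthase gene Gfus (0.78), Cmtm7 (0.78), Tor4a (0.77) and Plp2 (0.77), and the lowest were Pgap4 (-0.83), the neuronal endosome gene Nsg1 (-0.83) and the synaptic adhesion gene Lrrc4c (-0.81). With group means removed they were the potassium channel gene Kcnn4 (0.80), Cmtm7 (0.79), Sigirr (0.79), Tor4a (0.78) and the TNF receptor gene Tnfrsf1b (0.78). Among the list means, Igf2bp3 had r = 0.69 with the mesenchymal glioma list, 0.65 with the microglia and macrophage list and -0.49 with the neuron list. For Igf2bp1, whose signals are near the floor, no gene exceeded 0.68 (Mrpl19).

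Other genes of the same pathways were taken from lists assembled with earlier results of these arrays known, so their counts are not independent evidence. Of 21 let-7 targets tested, 2 fell in the mutants against EGFRvIII and 0 rose, 9.52% against the 8.9% of all genes called, with a median difference of -0.04 against -0.02 for all genes. The 2 were Cdk6, the cell cycle kinase (-1.52 ± 0.29, limma adjusted p = 0.00156), and Ccnd2, a D-type cyclin (-1.52 ± 0.31, adjusted p = 0.00317). The receptor gene Igf1r (-0.55 ± 0.18) and the Wnt receptor gene Fzd3 (0.41 ± 0.16) did not pass.

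Cdk6 averaged 4.94 to 5.63 in the mutant groups and was 4.95, 6.24, 5.72, 8.44, 8.54, 8.43, 5.38 and 5.78 in the EGFRvIII arrays. Its high values were in replicates 4, 5 and 6, and without these the difference was -0.45 (adjusted p = 0.417). Ccnd2 averaged 9.29 to 10.52 in the mutants and 11.40 ± 0.80 in EGFRvIII (SD, n = 8), with its highest values, 12.55 and 12.54, in replicates 2 and 3. Without replicates 4, 5 and 6 its difference was -1.57 (adjusted p = 0.0568). Within titles 41 to 64, which hold EGFRvIII and, of the mutants, only E7 del, V544ins and E10 del.v2, neither gene was called. The differences there were -1.44 for Cdk6 (limma adjusted p = 0.101) and -1.35 for Ccnd2 (adjusted p = 0.0863).

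None of the 17 genes of LIN28 and let-7 processing passed, with a median of -0.01. The smallest p belonged to the Argonaute genes Ago4 (0.57 ± 0.21) and Ago3 (0.42 ± 0.18), the Dicer partner gene Tarbp2 (-0.30 ± 0.12) and the exonuclease gene Dis3l2 (0.18 ± 0.09). None of 13 other HMG-box and HMGN chromatin genes passed, with a median of 0.00, among them Hmgn5 (-0.39 ± 0.20), Hmg20b (-0.38 ± 0.23), Ubtf (0.13 ± 0.10) and Hmgn1 (-0.17 ± 0.16). None of 22 genes for IGF2BP partners and m6A factors passed, with a median of -0.10. They included the poly(A)-binding protein genes Pabpc1 (-0.30 ± 0.10) and Pabpc4 (-0.45 ± 0.18), Fxr2 (0.26 ± 0.11) and the m6A reader gene Ythdc1 (-0.18 ± 0.08).

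In the IGF axis 3 of 12 genes were called, 1 higher and 2 lower, 25% against 8.9% of all genes, with a median of -0.02, which is also that of all genes. Insr, the insulin receptor gene, fell by 0.59 ± 0.09 (adjusted p = 3.32e-05), and Igfbp3 fell by 1.76 ± 0.38 (adjusted p = 0.00450). Igf2, the growth factor whose message the IGF2BP proteins bind, rose by 1.46 ± 0.46 (adjusted p = 0.0376), with group means of 5.50 to 7.47 in the mutants and 5.27 ± 0.57 in EGFRvIII (SD, n = 8). Igf2 lost its call in 8 of 13 other settings, among them titles 41 to 64 alone (0.92, adjusted p = 0.290), and Igfbp3 in 3 of 13, the smallest of these differences being the one without EGFRvIII replicates 4, 5 and 6 (-1.41, adjusted p = 0.222). Insr kept its call in 13 other settings and 44 fits without 1 array, but as the mean of all its probe sets its difference was -0.19 (adjusted p = 0.0343).

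Of 7 genes linked to HMGA2 that were tested, 4 fell and 0 rose, 57.1% against 8.9% of all genes called and 5.35% called lower, with a median of -1.59 against -0.02 for all genes. In mouse neural stem cells HMGA2 is known to hold down the Cdkn2a locus. Here both Cdkn2a and Cdkn2b were lower in the mutants, so they ran in the same direction as Hmga2 and not opposite to it. That relation was not tested. Cdkn2b differed by -2.27 ± 0.35 (limma adjusted p = 8.84e-05), the mesenchymal factor gene Twist1 by -2.22 ± 0.37 (adjusted p = 0.000325), the AP-1 gene Fosl1 by -1.64 ± 0.38 (adjusted p = 0.00701) and Cdkn2a by -1.59 ± 0.51 (adjusted p = 0.0443). In the EGFRvIII arrays Cdkn2b was 7.89, 9.97, 9.24, 9.43, 10.99, 10.81, 8.57 and 8.63, lowest in replicate 1 and highest in replicates 5 and 6, and its mutant group means were 6.01 to 7.95. Cdkn2a and Hmga2 had r = 0.73 over the 45 arrays, and Cdkn2a lost its call in 5 of 13 other settings, with a difference of -1.13 (adjusted p = 0.605) without EGFRvIII replicates 4, 5 and 6.

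Fosl1 and Twist1 were high in different EGFRvIII arrays, with replicate 6 high in both. Fosl1 was 7.98, 7.74 and 6.90 in replicates 4, 5 and 6 and 3.34 to 4.21 in the other 5, and without the 3 its difference was -0.18 (adjusted p = 0.827). Fosl1 passed the filter through these 3 arrays, 1 of C450 ins and 1 of E7 del, and its call was also lost with the title range as a block (adjusted p = 0.0606), within titles 41 to 64 (0.127) and without EGFRvIII replicate 5 (0.0574). Twist1 was 7.54, 7.88, 7.03 and 6.99 in replicates 2, 3, 6 and 7 and 3.89 to 5.03 in replicates 1, 4, 5 and 8. Twist1 passed the filter through 5 EGFRvIII arrays, 2 of C450 ins, 1 of D842V and 1 of E7 del. In E10 del, E10 del.v2, V544ins and WT no array exceeded the table median. Its call was kept in 13 other settings. With group means removed, Twist1 had r = 0.02 with Hmga2, against 0.60 for Fosl1 and 0.78 for Cdkn2b.

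Of 10 other oncofetal and embryonic genes, 2 rose and 0 fell, where 3.55% of all genes rose, with a median of 0.54 against -0.02. They were Cdkn1c, an imprinted inhibitor of cell division (2.34 ± 0.58, limma adjusted p = 0.0114), and Igf2, counted above too. Cdkn1c was not called without EGFRvIII replicates 4, 5 and 6 (1.42, adjusted p = 0.502), without EGFRvIII replicate 5 (2.02, adjusted p = 0.0699) or within titles 41 to 64 alone (2.47, adjusted p = 0.0879). Peg3 (1.11 ± 0.46) and Meis1 (-0.79 ± 0.27) did not pass.

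**Figure D5:**
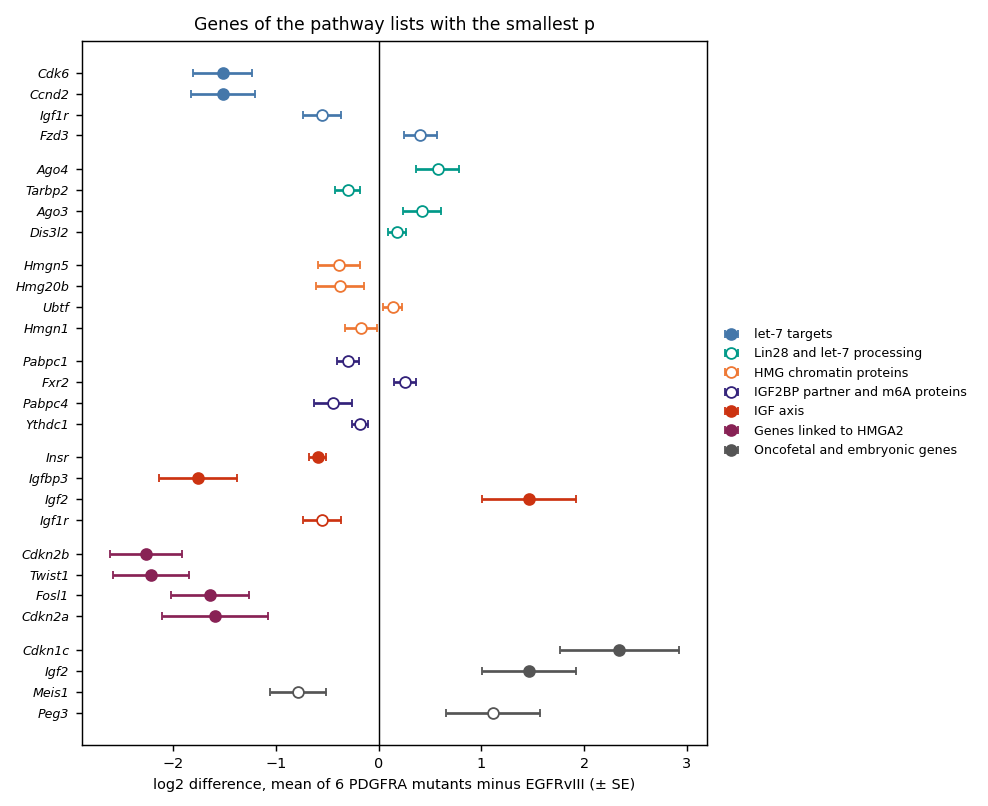
Log2 difference of the mean of the 6 mutants from EGFRvIII, with its SE, for up to 4 genes of each pathway list with the smallest p; filled points passed at an adjusted p under 0.05. Cdkn2b and Twist1 lie lowest, at -2.27 and -2.22, and Cdkn1c highest, at 2.34, while no gene of the let-7 processing, HMG chromatin or IGF2BP partner lists passed.

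Markers of other cells were counted in the same comparison, in which 8.9% of all genes were called, 3.55% higher and 5.35% lower, with a median of -0.02. In the mutants against EGFRvIII, 6 of 20 mesenchymal glioma genes fell (30%, median -0.81), as did 3 of 12 fibroblast genes (25%, -0.10). Of 10 neural stem and radial glia genes 1 rose and 1 fell (20%, -0.03). For microglia and macrophages 1 of 16 fell (6.25%, -0.32). For neurons 1 of 16 rose (6.25%, 0.96), and for myelinating oligodendrocytes 1 of 15 rose (6.67%, 0.75). These shares lay under the 8.9% of all genes called in either direction. They lay above the shares called in the same direction, 5.35% lower and 3.55% higher. None of 14 oligodendrocyte progenitor (0.44), 12 astrocyte (0.13), 10 endothelial and pericyte (-0.26) or 17 cell cycle genes (-0.20) passed. The mesenchymal mean was 5.18 to 8.65 in the mutant arrays and 6.49 to 9.91 in EGFRvIII, and its part in the difference of Hmga2 was not tested.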

How the data were processed

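The deposited values are log2 signals per probe set, which the authors made with RMA, per the submitters' processing notes; RMA corrects background, normalizes arrays by quantiles and summarizes probes, and no version is given in the sources used here. The table of 45141 probe sets in 45 arrays was used as deposited, with no columns left out and no identical columns. Probe sets with 1 gene symbol in the platform annotation (28898) were kept, while 551 had several and 15692 none. Groups were the genotypes in the labels. Group means of the 44 arrays of replicated groups were fitted with limma 3.58.1 (lmFit, eBayes) in R 4.3.3, and p-values were adjusted over all 11809 genes by Benjamini-Hochberg, with calls at an adjusted p under 0.05. All groups share an estimate of spread for each gene, so precision is set by how many arrays a group has and not by its own spread. The members, lists and settings were chosen with earlier results of these data known.

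Genes named beside the members were up to 4 per pathway list with the smallest p for the mutants against EGFRvIII, and for each member the 5 highest and 3 lowest Pearson correlations over arrays and the 5 highest for deviations from group means, passing over predicted and clone genes. Alternatives were filters, probe set summaries, normalization, priors, weights, the title range, a host brain covariate, grouping and leaving out arrays. The fit was also run on simulated data with independent genes and the same spread in every group. That run cannot tell how the fit behaves with the wider spread of EGFRvIII.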

Additional observations from a re-analysis of the deposited data

Results flagged for a closer look

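In 3 of 18 pairs of a member and a group with 4 to 10 arrays, 1 array lay far from the rest of its group by Dixon's test, which chance does in about 1 in 20 groups. Hmga2 was 3.89 in Pdgfra E10 del.v2 replicate 2, against 6.11 to 7.73 in the other 8 arrays, and the same array had the highest neuron list mean, 11.56. Igf2bp1 was 3.51 in E10 del.v2 replicate 6, against 3.05 to 3.26 in the others, all under the table median. Igf2bp3 was 3.85 in E10 del replicate 4, against 2.92 to 3.10 in the other 4 arrays. The cell cycle list mean was 8.43 in replicate 4 and 5.67, 6.02 and 5.41 in replicates 1, 2 and 3. Replicate 5 had a cell cycle list mean of 8.36 with Igf2bp3 at 3.08. The causes were not tested.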

How the results depend on the processing

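Hmga2 was lower in the mutants than in EGFRvIII in all 17 other settings and all 44 fits without 1 array (-3.08 to -2.41). It lost its call only without EGFRvIII replicates 4, 5 and 6 (-1.62). Settings that change only the filter or the prior, and the used probe set fitted by itself, give the same difference by construction. Igf2bp3 was called with arrays centred on their medians (-0.94) and in 8 of 44 fits without 1 array (-1.11 to -0.56). These calls were adjusted over filtered genes, and Igf2bp3 passed the filter mainly through EGFRvIII. With no filter it was not called (limma adjusted p = 0.0603). A filter of 9 arrays or the mean of all probe sets left it under the filter. The genes called numbered 1051, but 310 when the title range was a block, 80 within titles 41 to 64, 583 with the host brain covariate, 54 without EGFRvIII replicates 4, 5 and 6, and 185 (without EGFRvIII replicate 5) to 2239 (without replicate 1) without 1 array; 329 and 499 genes were called without replicate 6 or 4. Among the mutants 68 genes were called, but 14 with the block, 232 with the covariate, and 4 (without D842V replicate 3) to 141 (without E10 del.v2 replicate 2) without 1 array.

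Hmga2 in E10 del lost its call with the block (-3.44, adjusted p = 0.168), and in E7 del gained one with the covariate (-2.94); without 1 array E7 del ran from -3.04 to -2.04 with 2 calls and C450 ins from -3.12 to -2.45 with 4. D842V against the other mutants gained a call with the covariate (2.16), and E10 del against them in 1 fit without 1 array (-1.69 to -1.15). Igf2bp3 lost its call in E10 del with no filter (-1.25), the block (-0.70) and the covariate (-0.59), and in 8 of 44 fits without 1 array (-1.46 to -0.91). In E10 del.v2 it did so with no filter (-1.18), the block (-1.0) and the covariate (-0.64), and in 26 of 44 (-1.39 to -0.84).

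Signs turned only for values without a call. Igf2bp3 in D842V against EGFRvIII was 0.0795 with the block and 0.19 with the covariate. Against the other mutants, Hmga2 in C450 ins was 0.16 with the block and 0.0855, 0.0184 and 0.0528 without C450 ins replicate 1, E10 del replicate 4 or E7 del replicate 1 (lowest -0.147). In E7 del Hmga2 was -0.0700 with the block, -0.62 with the covariate and -0.248 without E7 del replicate 1 (highest 0.752), and Igf2bp3 was -0.33, -0.87, and -7.78e-05 and -0.239 without E7 del replicates 2 or 3 (highest 0.459). Between title ranges, the covariate gave -0.26 for Hmga2, -0.0433 for Igf2bp3 and -0.73 for the interaction of Igf2bp3. Fzd3 was -0.0173 as the mean of its probe sets, Hmg20b 0.11 with the block and 0.0188 without EGFRvIII replicates 4, 5 and 6, and Hmgn1 0.0349 with the covariate. Cdkn2a lost its call in 17 of 44 fits without 1 array and Igf2 in 5. The causes were not tested. No paired analysis was possible because the labels give no replicate numbers that groups share.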
